A study of Mus musculus with 8 samples.

Results

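The insulin and IGF receptor signalling genes described here are 10 genes, *Irs1*, *Irs2*, *Insr*, *Igf1r*, *Igf2r*, *Igf1*, *Igf2*, *Akt1*, *Akt2* and *Foxo1*, out of 26894 genes with a symbol on the array. They were taken as every probe of the array whose gene symbol is one of these names, which gives 23 of 56605 probes. The 10 genes were chosen on the measured difference between βUCP2Tg and WT islets on these same 8 arrays. Their differences between the groups are therefore a description and are given without p-values. Calls of their probes rest on adjusted p-values of that same difference, so they too only describe and are not a test. Of the 23 probes, 20 passed the filter for dim probes and were tested, among 35363 in all: they exceeded the background clearly on 4 or more arrays, and 18 of them did so on all 8.

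The study compared islets of male βUCP2Tg mice with islets of male WT mice, 4 samples per group, on one-colour Agilent arrays. βUCP2Tg mice carry a transgene in which a stretch of the rat *Ins2* promoter drives mouse *Ucp2* cDNA through a rabbit β-globin intron, and they were backcrossed to C57BL6/J. The promoter is that of an insulin gene, so that the transgene is aimed at β-cells, while an islet also holds α-cells, δ-cells, endothelium and other cells. Both groups were kept for 8 h in RPMI 1640 with 200 mg/dL glucose, serum and antibiotics before RNA was prepared, and no sample without glucose or with another dose was compared here. Whether each sample came from a single mouse was not settled here, so n, SD and p refer to samples, and the spread between samples may be partly technical. In such bulk RNA, fewer cells of a type and less RNA per cell cannot be told apart. All arrays shared a single slide on which each genotype filled a row of its own, and slide position and genotype cannot be told apart.

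Insulin, IGF1 and IGF2 bind receptor tyrosine kinases encoded by *Insr* and *Igf1r*. The receptors phosphorylate the docking proteins IRS1 and IRS2, which recruit PI3K, and the lipid that PI3K makes brings AKT to the membrane. AKT phosphorylates the FOXO transcription factors and holds them out of the nucleus. In β-cells, *Irs2* is known for its role in keeping up β-cell mass, and its transcription is known to respond to CREB after glucose or cAMP signals and to FOXO factors.

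In these islets 2 of the 4 *Igf1r* probes were called lower in βUCP2Tg than in WT (adjusted p under 0.05 and over 1.5-fold, met by 0.204% of all probes tested), and no other probe of the 10 genes was called. By its mean, *Irs2* was 2.50-fold lower in βUCP2Tg islets, *Irs1* 1.76-fold, the 4 probes of *Igf1r* between 1.70-fold and 3.03-fold, *Igf2r* 1.53-fold and the ligand gene *Igf2* 1.74-fold, each with 4 arrays per group and with every βUCP2Tg array below every WT array, as in 7.17% of all probes tested. Of 12 hypoxia response genes 10 also had negative log2 fold changes, and their part in these differences was not tested. The brightest tested probes of *Insr*, *Akt1*, *Akt2*, *Foxo1* and *Igf1* had log2 fold changes between -0.01 and 0.17. Signals are given below as normalized log2 signals, that is log2 of a spot's intensity minus the 75th percentile of its array, and a log2 fold change is the βUCP2Tg mean minus the WT mean. Levels of different probes are not compared, since brightness depends on the probe.

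The results turn on the single *Irs2* probe and on the 4 *Igf1r* probes, whose sequences are shown because the probes of *Igf1r* differ in the size of their change. Each is 60 bases long, written 5′ to 3′ as in the deposited table, in lower case since no base is singled out. The position of a probe within its transcript was not determined here.
*Irs2* A_66_P102260: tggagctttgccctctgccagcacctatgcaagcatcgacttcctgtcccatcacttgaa
*Igf1r* A_55_P2736764: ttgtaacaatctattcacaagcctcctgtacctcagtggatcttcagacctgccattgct
*Igf1r* A_51_P318365: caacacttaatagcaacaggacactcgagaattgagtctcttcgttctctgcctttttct
*Igf1r* A_55_P2804885: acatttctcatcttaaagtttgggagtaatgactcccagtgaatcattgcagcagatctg
*Igf1r* A_52_P668647: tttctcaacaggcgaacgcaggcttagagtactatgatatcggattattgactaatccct

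*Ucp2*, the gene of the transgene, was read first as a check of the labels. Its brighter probe (A_51_P297105) lay between 6.99 and 7.71 on the βUCP2Tg arrays and between 0.92 and 1.46 on the WT arrays. Its other probe (A_52_P90265) differed less, at 0.85 ± 0.06 on the βUCP2Tg arrays and 0.41 ± 0.22 on the WT arrays (SD, 4 arrays each), a log2 difference of 0.44 (adjusted p = 0.0987 by limma). It missed the call, while its groups lay apart on every array. Whether it reads the transgene's transcript was not tested. Between 33191 and 36320 probes per array were well above background, the 75th percentile of log2 intensity before scaling was 9.00 to 9.16 on the βUCP2Tg arrays and 8.78 to 8.89 on the WT arrays, and no spot was saturated. All 10 β-cell markers listed, *Ins1* and *Ins2* among them, were well above background on all 8 arrays. WT replicate 1 correlated with the other WT arrays at r = 0.966 to 0.985 across probes and with βUCP2Tg replicate 1 at 0.985, and βUCP2Tg replicate 4 correlated with the other βUCP2Tg arrays at 0.985 to 0.988, where those 3 correlated with each other at 0.993 to 0.994. The summed level of 12 hypoxia response genes set both arrays apart: it was 6.60 to 6.62 on βUCP2Tg replicates 1 to 3 and 7.50 on replicate 4, and 7.89 to 8.01 on WT replicates 2 to 4 and 7.14 on replicate 1. The calls below are therefore also given without these arrays.

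*Irs2*, the docking protein gene, had normalized log2 signals of 2.43, 2.12, 2.19 and 2.79 on βUCP2Tg replicates 1 to 4 and of 3.07, 3.94, 3.71 and 4.08 on WT replicates 1 to 4. The groups did not overlap, the highest βUCP2Tg array was replicate 4 and the lowest WT array was replicate 1, the same arrays that the hypoxia list set apart. The means were 2.38 ± 0.30 (SD, n = 4) and 3.70 ± 0.45 (SD, n = 4), which gives a log2 fold change of -1.32 with a standard error of 0.24. Before any scaling, the intensity of this probe was 2301 to 3898 on the βUCP2Tg arrays and 3986 to 7450 on the WT arrays, also without overlap. Calls came from limma fitted across all 35363 probes and needed both a Benjamini-Hochberg adjusted p below 0.05 and a change of more than 1.5-fold. The *Irs2* probe did not meet them. Without βUCP2Tg replicate 4 the *Irs2* log2 fold change was -1.46 and without WT replicate 1 it was -1.53, and the probe was called in both cases, while it was not called without any one of the other 6 arrays.

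*Irs1*, the gene of the related docking protein, had signals of -0.29, -0.22, -0.04 and 0.47 on the βUCP2Tg arrays and of 0.59, 0.61, 0.94 and 1.06 on the WT arrays. Its groups did not overlap either, and βUCP2Tg replicate 4 was again the nearest to the WT arrays. The log2 fold change was -0.82 with a standard error of 0.19, and the probe was not called.

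**Figure D1:**
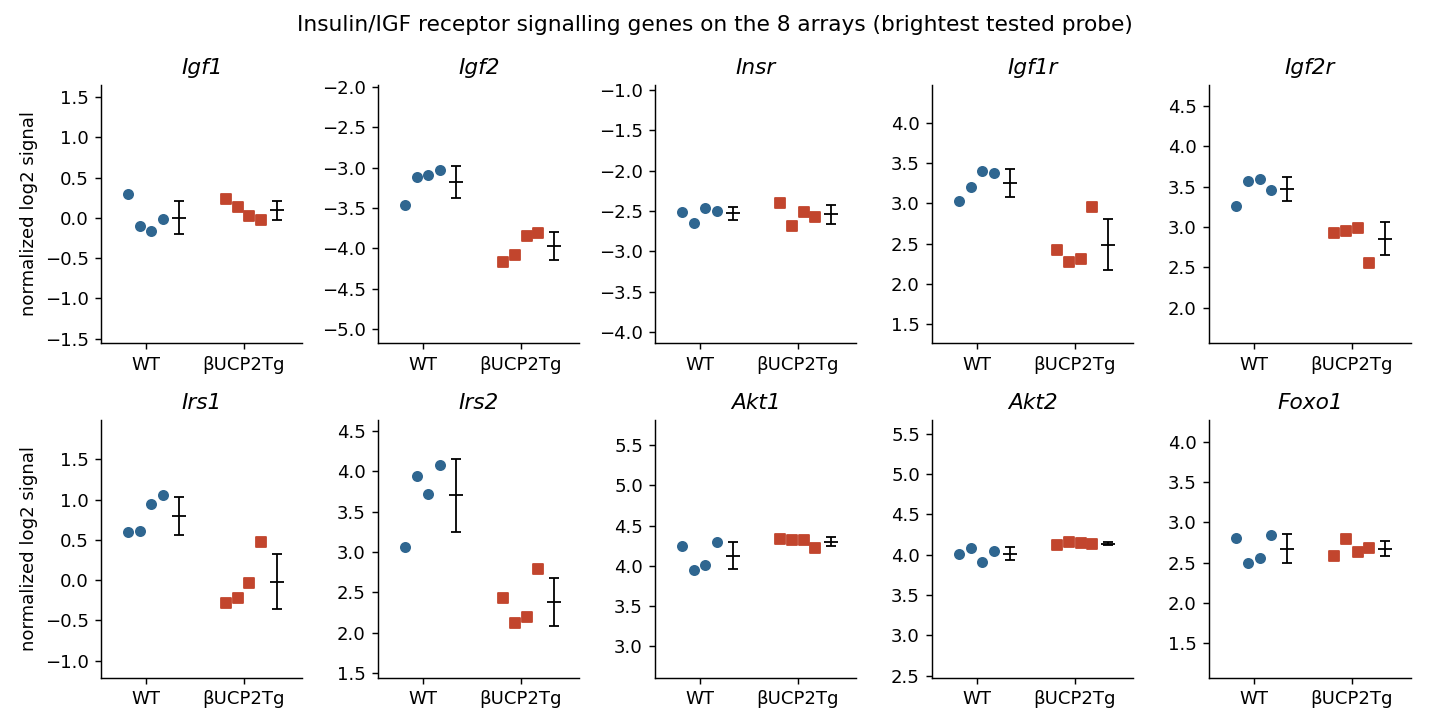
Normalized log2 signal of the brightest tested probe of each of the 10 genes on the 4 WT arrays (blue circles, replicates 1 to 4 from left to right) and the 4 βUCP2Tg arrays (red squares), with the mean and SD beside each group and a y axis of the same span, in log2 units, in every panel. *Igf2*, *Igf1r*, *Igf2r*, *Irs1* and *Irs2* show every βUCP2Tg array below every WT array, while *Insr* (-0.01) and *Foxo1* (-0.00) show log2 fold changes near 0.

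Among the receptors, *Igf1r*, which encodes the IGF1 receptor, has 4 probes. The called probe A_55_P2804885 read -1.45, -1.64, -1.21 and -0.45 on the βUCP2Tg arrays and 0.23, 0.52, 0.63 and 0.27 on the WT arrays, a log2 fold change of -1.60 with a standard error of 0.25. The other called probe, A_51_P318365, read 1.66, 1.53, 1.70 and 1.98 against 2.48, 2.49, 2.79 and 2.69, a log2 fold change of -0.90 with a standard error of 0.13. βUCP2Tg replicate 4 was the highest of its group on both probes, and no βUCP2Tg array reached a WT array.

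The brightest *Igf1r* probe, A_55_P2736764, read 2.42, 2.27, 2.31 and 2.95 on the βUCP2Tg arrays and 3.03, 3.20, 3.40 and 3.37 on the WT arrays. The fourth, A_52_P668647, read -1.95, -2.45, -1.86 and -0.83 against -0.56, -0.17, -0.08 and -0.66. The log2 fold changes were -0.76 (standard error 0.17) and -1.40 (standard error 0.32), neither probe was called, and the groups did not overlap on either. The probes thus ordered the groups alike but differed in size, from 1.70-fold for A_55_P2736764 to 3.03-fold for A_55_P2804885. The array annotation assigns the 2 probes with the smaller changes to the RefSeq mRNA of *Igf1r* and the 2 with the larger changes to 1 Ensembl transcript of the gene, and whether they measure different transcripts in these islets was not tested.

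*Igf2r* encodes the receptor that takes up IGF2 for breakdown and carries mannose 6-phosphate tagged enzymes to the lysosome. Its probe read 2.92, 2.95, 2.99 and 2.55 on the βUCP2Tg arrays and 3.26, 3.57, 3.60 and 3.46 on the WT arrays, a log2 fold change of -0.62 with a standard error of 0.13. In contrast to *Irs2* and *Igf1r*, βUCP2Tg replicate 4 was here the array farthest from WT, and the probe was not called.

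*Insr*, the insulin receptor gene, did not show such a pattern. The probe A_55_P2173927 read -2.40, -2.69, -2.51 and -2.57 on the βUCP2Tg arrays and -2.51, -2.65, -2.46 and -2.50 on the WT arrays, and its log2 fold change was -0.01 with a standard error of 0.10. A second probe near the background, A_52_P6490, had a log2 fold change of -0.39 with a standard error of 0.25, with overlapping groups, and was well above background on 3 of 4 βUCP2Tg arrays and on all 4 WT arrays. The third *Insr* probe did not rise clearly above background anywhere, and the 2 tested probes were not called.

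The ligand gene *Igf2* was dim. Its probe A_51_P516833 read -4.17, -4.08, -3.84 and -3.80 on the βUCP2Tg arrays and -3.46, -3.11, -3.09 and -3.03 on the WT arrays, and was well above background on all 8 arrays. The groups did not overlap, WT replicate 1 was the lowest WT array, and the log2 fold change of -0.80 (standard error 0.13) was not called. The second *Igf2* probe, A_55_P2118173, was well above background on no βUCP2Tg array and on 3 WT arrays, and was not tested. Its level was at least 1.27-fold higher in WT islets, with WT replicate 4, on which it was not well above background, counted at its own value, so that the bound is not strict, and taking for each βUCP2Tg array, where the probe itself was dimmer, the dimmest signal of any probe that passed as above background there.

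*Igf1*, the other IGF ligand gene, read 0.24, 0.14, 0.02 and -0.03 on the βUCP2Tg arrays and 0.30, -0.10, -0.16 and -0.02 on the WT arrays with its brightest probe (A_55_P2085979). The groups overlapped, and the log2 fold change was 0.09 with a standard error of 0.12. The probe A_51_P147942 was well above background on 1 βUCP2Tg array and 3 WT arrays, with replicate 3 at -2.02 where the other βUCP2Tg arrays lay between -6.63 and -5.81, so that its log2 fold change of 0.29 (standard error 0.94) rests on that array. The third *Igf1* probe was well above background on 1 WT array and was not tested.

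Downstream of the docking proteins, *Akt1* and *Akt2* encode the main AKT kinases and *Foxo1* the FOXO factor best known in β-cells. The brightest *Akt1* probe (A_51_P237553) read 4.33, 4.33, 4.32 and 4.22 on the βUCP2Tg arrays and 4.24, 3.95, 4.01 and 4.30 on the WT arrays, a log2 fold change of 0.17 with a standard error of 0.10. The brightest *Akt2* probe (A_55_P2066518) read 4.12, 4.16, 4.14 and 4.13 against 4.02, 4.09, 3.91 and 4.04, a log2 fold change of 0.12 with a standard error of 0.08. This *Akt2* probe is the one probe of the 20 with every βUCP2Tg array above every WT array, and it was not called.

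*Foxo1* (A_55_P2798990) read 2.58, 2.79, 2.63 and 2.68 on the βUCP2Tg arrays and 2.81, 2.49, 2.55 and 2.85 on the WT arrays, with overlapping groups and a log2 fold change of -0.00 (standard error 0.11). The remaining 5 probes of *Akt1*, *Akt2* and *Foxo1* had log2 fold changes between -0.16 and 0.14, and none was called. One of them, A_66_P107415 of *Akt1*, had every βUCP2Tg array below every WT array at a log2 fold change of -0.16, while the other *Akt1* probes were at 0.17 and 0.14, so that the *Akt1* probes disagreed in sign.

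**Figure D2:**
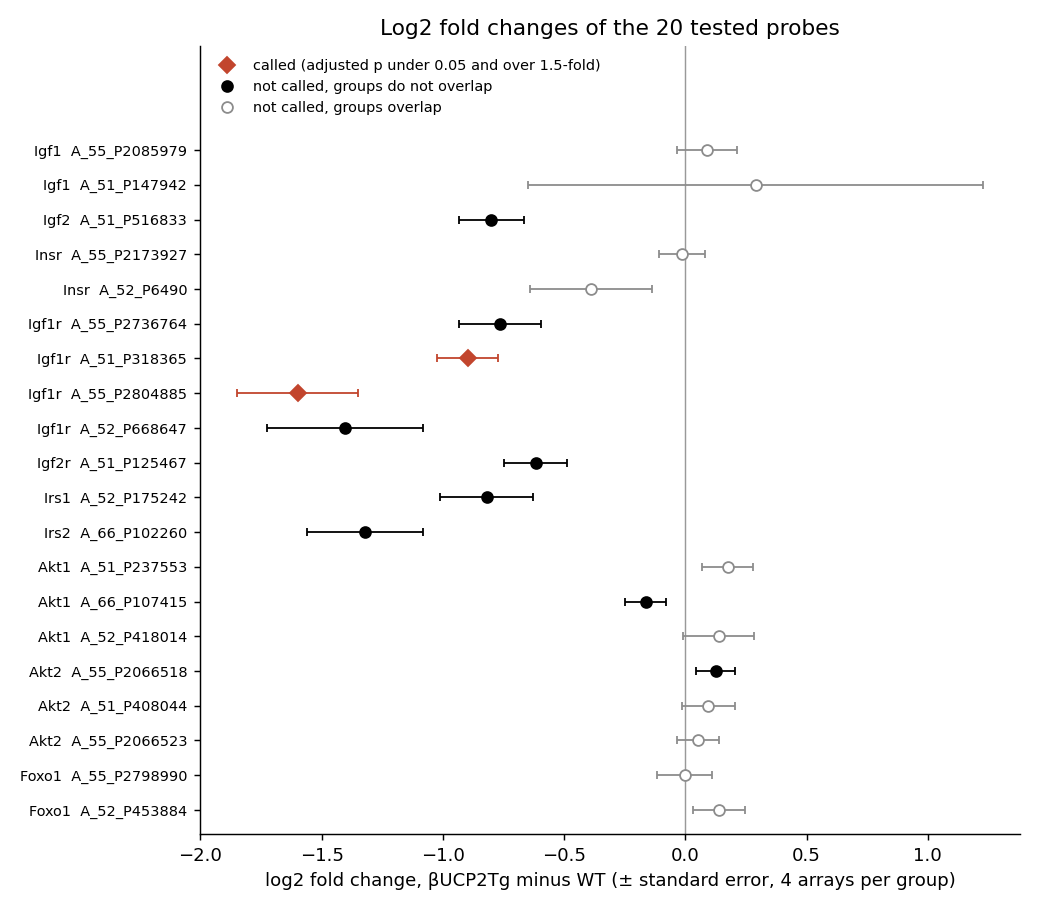
Log2 fold change, βUCP2Tg minus WT, of the 20 tested probes with its standard error (horizontal bars, 4 arrays per group), grouped by gene from ligands to *Foxo1*. The 2 called probes (red diamonds) are both of *Igf1r*, at -0.90 and -1.60, and the *Akt1*, *Akt2* and *Foxo1* probes lie between -0.16 and 0.17.

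Of the 20 tested probes, 0 were called higher and 2 were called lower, both of *Igf1r*. Across the whole array the shares were 0.206% called higher and 0.204% called lower. In 9 of the 20 probes every βUCP2Tg array lay below every WT array and in 1 every array lay above, where these shares were 7.17% and 5.25% over all probes tested. The median log2 fold change was -0.09 over the 20 probes and -0.02 over all probes tested, and 8 of the 20 were positive, where 46.8% of all probes tested were. Since the 10 genes were picked with this comparison known, nothing is read from these counts. The 2 calls were lost without any one of βUCP2Tg replicates 1, 2 and 3 and WT replicates 2, 3 and 4, which left 0 called member probes each, whereas 7 were called lower without βUCP2Tg replicate 4 and 8 without WT replicate 1. The 7 were the *Irs1* and *Irs2* probes, the tested *Igf2* probe and the 4 *Igf1r* probes, and the 8 also held the *Igf2r* probe. Calls rose over the whole array in these fits too, to 3.19% and 5.67% of probes called lower. Without both of these arrays, an alternative chosen after seeing the data, 8 probes were called lower, against 9.25% of all probes tested in that fit, and the *Irs2* log2 fold change was -1.67. For *Irs2* these 2 arrays are also the ones nearest to the opposite group.

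*Irs2* was next set beside the other genes array by array. After each group's mean was subtracted, the brightest probe of *Igf1r* followed *Irs2* at Pearson r = 0.78 over the 8 arrays, *Igf2* at 0.74 and *Irs1* at 0.63. For *Igf2r* (-0.04), *Insr* (-0.01) and *Akt2* (0.11) the value was near 0, and for *Foxo1* (-0.28), *Akt1* (-0.31), *Igf1* (-0.68) and *Ucp2* itself (-0.20) it was negative. Among 17854 genes compared, the 5 most like *Irs2* within the groups were *Zfp503* (0.993), *Zkscan17* (0.984), *Cep85l* (0.984), *Nrd1* (0.983) and *Acacb* (0.982). With 8 arrays and so many genes these are descriptions, and the arrays share whatever sets βUCP2Tg replicate 4 and WT replicate 1 apart. *Acacb*, which encodes an acetyl-CoA carboxylase at the mitochondrial surface, was at -1.21 between the groups (log2 fold change, adjusted p = 0.0895 by limma), and *Zfp503*, a zinc finger protein gene, was at -0.13 (adjusted p = 0.71 by limma).

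Markers of other cells and of hypoxia moved with the groups to different degrees. Of the 12 hypoxia genes, 10 had negative log2 fold changes, with a median of -1.22 and a summed level of 6.60 to 7.50 in βUCP2Tg and 7.14 to 8.01 in WT. All 14 acinar genes had negative log2 fold changes, but their summed level ran from 3.72 to 7.99 in βUCP2Tg and from 4.40 to 8.71 in WT. WT replicate 4 had the lowest acinar level of the WT arrays (4.40) and the highest *Irs2*, whereas βUCP2Tg replicate 4 had the highest level of both in its group. The summed level of 9 macrophage genes was 3.19 to 3.47 in βUCP2Tg and 3.56 to 3.94 in WT, with 6 of the 8 tested genes negative. One of them, *Cd14*, a receptor gene for bacterial lipopolysaccharide, was the one gene of the marker lists that was called, at -2.10 (adjusted p = 0.048 by limma). Of all genes tested, 0.325% were called lower. The other macrophage genes did not all follow *Cd14*. *C1qa* was at 0.66 (not called) and *Lyz2* at 0.09, while *C1qb* and *C1qc* were both at -0.09. The part of these lists in the *Irs2* and *Igf1r* differences was not tested.

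**Figure D3:**
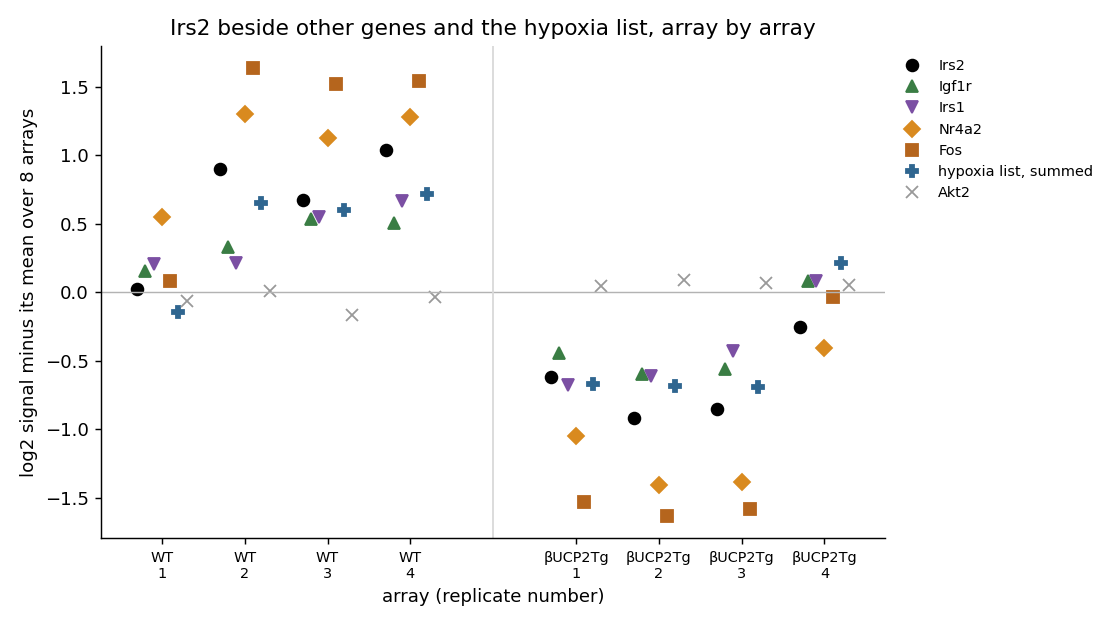
Log2 signal minus its mean over the 8 arrays (y axis) for *Irs2*, *Igf1r*, *Irs1*, *Akt2*, the immediate-early genes *Nr4a2* and *Fos* (brightest tested probes) and the summed hypoxia list, on each array (x axis; replicate numbers have no order). On βUCP2Tg replicate 4 and WT replicate 1 most series lie nearest to 0, and *Akt2* stays near 0 on all 8 arrays.

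The rest of the pathway was followed over 85 further genes in 6 lists, of which 78 were tested. None was called higher and 1, *Nr4a2*, was called lower, where 0.325% of all 17860 genes tested were called higher and 0.325% lower. An unadjusted p under 0.05 was reached by 30 of the 78, and by 24.5% of all genes tested, counting brightest probes. The lists were chosen with earlier results known, so nothing is read from the difference. The median log2 fold change over the 78 genes was -0.01, against 0.03 over the brightest probes of all genes tested.

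The list of CREB and immediate-early genes, which holds CREB, its coactivator gene *Crtc2* and genes that cAMP and calcium switch on quickly, held the one call. *Nr4a2*, the gene of an orphan nuclear receptor, read 0.55, 0.19, 0.21 and 1.19 on the βUCP2Tg arrays and 2.15, 2.90, 2.73 and 2.88 on the WT arrays (A_66_P118213). Its log2 fold change was -2.13 with a standard error of 0.26 (adjusted p = 0.0298 by limma), and its second probe was called too at -2.13 (adjusted p = 0.034 by limma). Every *Nr4a2* signal in βUCP2Tg islets was below every WT signal, with the smallest gap again between βUCP2Tg replicate 4 and WT replicate 1.

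Of the 12 genes of that list, 11 had negative log2 fold changes, with a median of -1.22, and in 7 every βUCP2Tg array lay below every WT array, as it did in 6.73% of all genes tested. *Nr4a1*, the gene of a related receptor, was at -2.47 (standard error 0.46, adjusted p = 0.0635 by limma) and *Fos*, a subunit of AP-1, at -2.39 (standard error 0.46, adjusted p = 0.065 by limma), and neither was called. *Nr4a3* had the one positive value, 0.13, and *Creb1*, the gene of CREB itself, was at -0.31 (adjusted p = 0.152 by limma). The call of *Nr4a2* was lost without any one of βUCP2Tg replicates 1, 2 and 3 or WT replicates 2, 3 and 4, which left 0 genes of the 6 lists called, while without βUCP2Tg replicate 4, 9 genes were called lower and 1 higher (4.26% and 1.67% of all genes), and without WT replicate 1, 14 lower and 7 higher (7.3% and 7.89% of all genes).

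No gene of the other 5 lists was called. Unadjusted p-values under 0.05 were reached by 2 of 8, 3 of 16, 6 of 15, 4 of 15 and 5 of 12 of their genes, in the order given here, beside the 24.5% of all genes given above. Among 8 tested ligands and IGF binding proteins the largest log2 fold changes were those of *Igfbp3*, a carrier of circulating IGFs, at -1.23 (adjusted p = 0.0971 by limma) and *Igfals*, the acid-labile subunit of the IGF carrier complex, at 0.49. The insulin genes differed little, with *Ins1* at -0.16 and *Ins2* at -0.18 (standard errors 0.12 and 0.10). Among 16 adaptors and brakes near the receptors, *Sh2b2*, an adaptor of the insulin receptor, was at -0.65 (adjusted p = 0.106 by limma) and *Grb14*, an inhibitor of it, at 0.37.

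Each gene of these lists is counted by its brightest tested probe, and other probes of the same gene may differ from it. Among 15 genes of PI3K and of the enzymes between it and AKT, 11 had positive log2 fold changes with a median of 0.16. The catalytic subunit gene *Pik3ca* was at -0.47 and the regulatory subunit gene *Pik3r3* at 0.64 (adjusted p = 0.126 and 0.142 by limma). Among 15 AKT substrates and mTORC1 and FOXO genes the ends of the range were *Gsk3b*, a kinase that AKT inhibits, at -0.25 and *Foxo6* at 0.84 (adjusted p = 0.104 by limma). Among 12 FOXO targets they were the repressor gene *Bcl6* at -0.79 and *Fbxo32*, a muscle-atrophy ubiquitin ligase gene, at 1.48 (adjusted p = 0.109 by limma), with 8 positive, 4 negative and a median of 0.14.

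**Figure D4:**
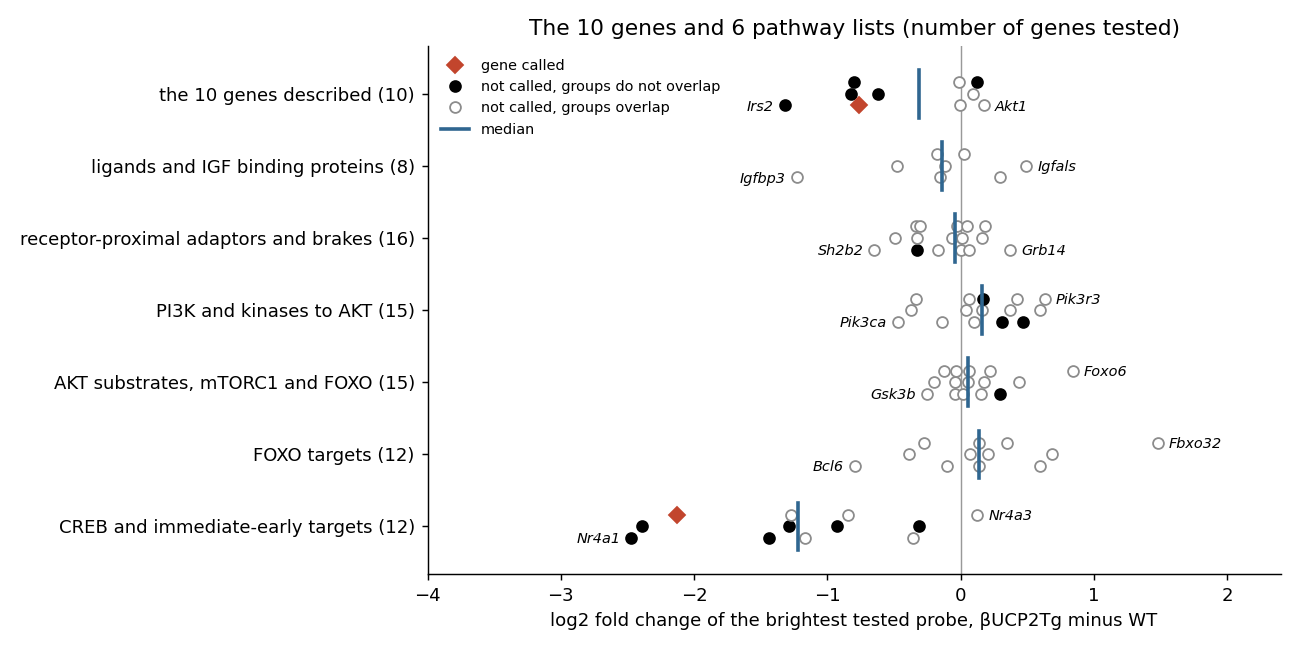
Log2 fold change, βUCP2Tg minus WT, of the brightest tested probe of each gene, for the 10 genes described here and for the 6 pathway lists (rows, with the number of genes tested), with the lowest and highest gene of each row named and a blue bar at the median. The CREB and immediate-early list has the lowest median, -1.22, and holds *Nr4a2*, the one pathway gene called, while *Igf1r* is marked as called through probes other than the one drawn.

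The promoters of the docking protein genes are shown because *Irs1* and *Irs2* both lay lower and because both regions hold the same pair of short motifs. The RefSeq promoter table (GRCm38.p6) had a window for 9 of the 10 genes, all but *Insr*. The 250 bases before each start site were searched on both strands for the CRE TGACGTCA, its part TGACG, the E-box CACGTG and the FOXO-type sites TGTTTAC and CAAAACA. Capitals mark every match. The *Irs2* window is chr8:11008930-11009179 and the *Irs1* window chr1:82291440-82291689, both on the minus strand and written 5′ to 3′ along the gene, ending at the last base before the start site.
*Irs2*: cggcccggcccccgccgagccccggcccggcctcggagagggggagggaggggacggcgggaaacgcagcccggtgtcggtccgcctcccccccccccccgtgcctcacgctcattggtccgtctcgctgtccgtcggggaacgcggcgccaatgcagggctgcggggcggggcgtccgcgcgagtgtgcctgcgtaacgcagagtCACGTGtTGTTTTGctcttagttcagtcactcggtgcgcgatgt
*Irs1*: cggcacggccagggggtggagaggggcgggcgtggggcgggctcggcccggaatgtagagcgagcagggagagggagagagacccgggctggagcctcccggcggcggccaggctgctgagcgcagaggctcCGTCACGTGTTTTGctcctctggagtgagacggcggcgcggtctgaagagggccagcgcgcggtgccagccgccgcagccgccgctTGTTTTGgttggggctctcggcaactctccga

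In *Irs2*, an E-box at -44 to -39 is followed after 1 base by TGTTTTG, the other strand of CAAAACA, at -37 to -31. In *Irs1*, the E-box at -115 to -110 overlaps TGTTTTG at -111 to -105 and, on its other side, CGTCA, the other strand of TGACG, at -118 to -114, and a second TGTTTTG lies at -32 to -26. Of 32851 promoter windows in the table, 6.02% held the E-box, 5.56% CAAAACA and 0.295% both. The pair was picked after the matches in *Irs1* and *Irs2* were seen, so nothing is read from its share. *Igf1r*, *Igf2* and *Igf2r*, which also lay lower, did not hold the pair. *Igf2r* held 2 E-boxes and no CAAAACA, and *Igf1r*, *Igf1* and *Foxo1* held no match to any of the 5 motifs. The full CRE, present in 1.55% of all windows, was in none of the members' windows. TGACG was found in windows of *Irs1*, *Igf2r*, *Igf2* and *Akt2* (17.8% of all windows), and TGTTTAC in 1 window of *Akt1* (3.17% of all windows). These matches are letters in a window, and binding was not measured here.

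The *Irs2* probe was called under 6 of 20 alternatives. Of the 20, 6 change only the filter, the test or the threshold and leave every log2 fold change as it was, and over the remaining 14 that of *Irs2* ran from -1.67 to -1.19. *Irs1*, *Igf1r*, *Igf2* and *Igf2r* had negative values under these 14 for their brightest probes, from -1.05 to -0.73, -0.99 to -0.69, -0.95 to -0.50 and -0.69 to -0.49 respectively. Since the groups of these genes and of *Irs2* did not overlap, leaving out arrays could not turn their sign. *Akt1*, *Akt2* and *Igf1* had positive values under the 14, and *Insr* and *Foxo1* took either sign.

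**Figure D5:**
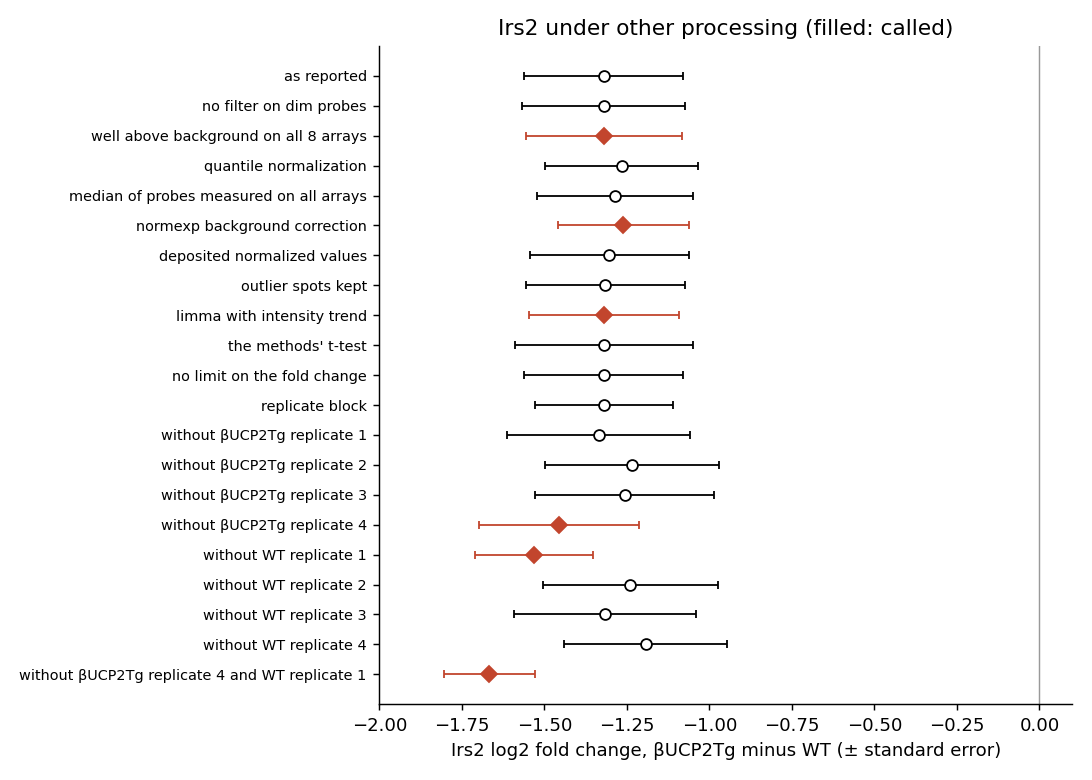
*Irs2* log2 fold change, βUCP2Tg minus WT, with its standard error (x axis) as reported and under each of 20 other ways of processing the arrays (rows), filled red where the probe was called. The values run from -1.67 to -1.19, and the calls come with stricter filtering, normexp, an intensity trend, or leaving out βUCP2Tg replicate 4, WT replicate 1 or both.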

How the data were processed

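RNA of islets from 4 βUCP2Tg and 4 WT samples was hybridised to one-colour Agilent arrays. The authors' deposited scanner files give the intensity of each spot after background subtraction by Agilent Feature Extraction (version 9.1 per the submitters' processing notes), with no scaling between arrays. The authors also deposited a GeneSpring table of normalized log2 values, found here to equal log2 intensity minus a constant per array, which was used as an alternative. Its columns of fold change and p between the groups hold the authors' own comparison and were not used. Other flags and names of the deposited files gave spot quality, gene symbols and probe sequences.

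Here, control spots and outlier spots were left out, the 75th percentile of log2 intensity was subtracted per array, and spots of one probe were averaged. Probes well above background on at least 4 of 8 arrays were compared with limma 3.58.1 (lmFit, eBayes) under R 4.3.3. P-values were adjusted after Benjamini and Hochberg over all tested probes, and calls needed an adjusted p under 0.05 and over 1.5-fold. A gene counted as called through any probe, and its value is that of its brightest tested probe. Promoters were searched with Python 3.11.15, and plots were drawn with matplotlib 3.10.9. The number of arrays limits the precision.

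The 10 genes, the pathway and marker lists and the motifs were chosen with earlier results of these data known. Genes named are the 10 with every probe, *Ucp2*, every called gene of a pathway list or otherwise the tested gene with the largest log2 fold change in each direction, and the 5 genes most like *Irs2*. The values of 1 gene of a pathway list are not reported here. *Nr4a1*, *Fos*, *Creb1*, *Ins1*, *Ins2*, *Cd14*, *C1qa*, *C1qb*, *C1qc* and *Lyz2* were named after their values were seen. The remaining lists were β-cell (median log2 fold change -0.08), α-cell (0.10), δ- and PP-cell (0.27), endothelium (0.23), mesenchyme (0.32) and duct (-0.08). Alternatives were no filter or all 8 arrays for dim probes, quantile or median scaling, normexp with an offset of 50, the deposited values, outlier spots kept, limma with an intensity trend, the methods' t-test, no limit on the fold change, a replicate block, and each array left out in turn.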

Additional observations from a re-analysis of the deposited data

Results flagged for a closer look

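Of 58 groups of 4 arrays examined, 7 had an array whose gap to its nearest neighbour exceeded Dixon's critical share of the group's range at the 95% level, where chance alone gives about 1 in 20 groups, or 2.9. For 3 probes of the signalling genes this array was βUCP2Tg replicate 4. It lay at 2.55 for *Igf2r* (A_51_P125467, gap ratio 0.851), where the other βUCP2Tg arrays lay between 2.92 and 2.99. For *Akt1* (A_51_P237553) it lay at 4.22 against 4.32 to 4.34 (gap ratio 0.838), and for *Akt2* (A_51_P408044) at 0.28 against -0.02 to 0.02 (gap ratio 0.887). The summed hypoxia list placed βUCP2Tg replicate 4 above its group, at 7.50 against 6.60 to 6.62 (gap ratio 0.974), and WT replicate 1 below its group, at 7.14 against 7.89 to 8.01 (gap ratio 0.865). WT replicate 1 was also lowest in the summed δ- and PP-cell markers, at 8.38 against 8.77 to 8.78 (gap ratio 0.98), and in the mesenchyme markers, at 2.91 against 3.77 to 3.84 (gap ratio 0.928). What sets these arrays apart was not tested. No *Irs2* or *Igf1r* probe had an array that far from its group.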

How the results depend on the processing

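The *Irs2* log2 fold change ran from -1.53 to -1.19 when arrays were left out one at a time. The number of signalling probes called lower moved from 2 to 0 with no filter on dim probes, with the methods' t-test and with the replicate block, to 4 with probes well above background on all 8 arrays, to 6 with normexp and to 5 with an intensity trend, and ran from 0 to 8 when arrays were left out. Called higher stayed at 0. The calls over the whole array moved the same way: 0.204% of all tested probes were called lower at first, 0.0053% with no filter, 0.0255% with the methods' t-test, 0.00283% with the block, 0.435% with all 8 arrays, 1.65% with normexp and 0.648% with the trend, and 0 to 5.67% when arrays were left out. Pathway genes called lower moved from 1 to 0 with no filter, the methods' t-test and the replicate block, to 10 with normexp and to 5 with an intensity trend, and ran from 0 to 14 when arrays were left out, with 0 to 7 called higher. Of all tested genes, 0.325% were called lower at first, 0.00744% with no filter, 0.0448% with the methods' t-test, 0.0056% with the block, 2.42% with normexp, 0.941% with the trend and 0 to 7.3% when arrays were left out, where 0.0282% to 7.89% were called higher. Without both βUCP2Tg replicate 4 and WT replicate 1, chosen after seeing the data, 8 signalling probes and 19 pathway genes were called lower and 10 pathway genes higher, where 9.25% of all tested probes and 11.6% of all tested genes were called lower and 10.4% of genes higher. Quantile or median scaling, the deposited values, kept outlier spots and no limit on the fold change left the counts of signalling probes and pathway genes as they were. Over all probes, calls numbered 145, and between 8 and 5486 under the alternatives.

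The 2 arrays numbered 1, WT replicate 1 among them, deviated together (r = 0.44), and those numbered 2 to 4 did not (r = -0.05, -0.01 and -0.24). A βUCP2Tg array correlated best with the WT array of its own number in 1 of 4 cases, so the numbers were not taken to pair the samples. With the replicate block 14 probes were called in all and the *Irs2* log2 fold change was -1.32. The calls thus rest on few arrays, 4 per group, and on which of them are kept. The second *Igf2* probe and the dimmer *Insr* and *Igf1* probes lie near the background, which limits what they show.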
